A study of Homo sapiens with 12 samples.

Results

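The genes described here encode 39 enzymes, transporters and regulators of glycolysis, gluconeogenesis and the pentose phosphate pathway, and were taken by symbol from a deposited expression table of 60664 genes. Messenger RNA had been sequenced from Huh7 and MHCC97H, 2 cell lines grown from human hepatocellular carcinoma, in 12 libraries that fall into 4 groups of 3. In Huh7 the microRNA was supplied as a transfected mimic, a short synthetic RNA doing the work of the mature strand, and compared with a negative-control mimic. In MHCC97H it was expressed from the construct labelled pGreen-628 and compared with an empty vector, and the labels give both control groups as wild type and all 4 groups as grown in serum-supplemented medium. Delivery therefore differed together with the line. The vector's promoter, the number of clones and the time after transfection are not given in the sources used here. Each comparison asks what miR-628-3p overexpression did to the messenger RNA of these genes in a line.

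Glycolysis splits glucose into pyruvate, and several of its enzymes exist as isoenzymes that differ between tissues: normal hepatocytes use aldolase B and the liver pyruvate kinase, while hepatocellular carcinoma cells often use aldolase A and PKM. Pyruvate is then reduced to lactate and exported, or carried into mitochondria and oxidised by pyruvate dehydrogenase, which its kinases switch off. Gluconeogenesis runs the pathway backwards through pyruvate carboxylase, phosphoenolpyruvate carboxykinase and fructose bisphosphatase, and the pentose phosphate pathway branches off at glucose 6-phosphate to supply NADPH and ribose.

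The sequence of the microRNA is shown because its seed, bases 2 to 8 in capitals, is what pairs with a target. It is from RefSeq and lies on the minus strand at chr15:55372954-55372974 (GRCh38.p14).
hsa-miR-628-3p: uCUAGUAAgaguggcagucga
The 7-base match to this seed, TTACTAG, was searched on the sense strand of the longest annotated 3′ UTR (GENCODE release 29, GRCh38) of each of the 39 genes. PDK3, a kinase that inactivates pyruvate dehydrogenase, was the only one of the 39 with a match, and its UTR of 3313 bases held 3. None of them was followed by the A that would make it the full 8-base site. They are printed 5′ to 3′ with 10 bases on either side and the match in capitals, on the plus strand at chrX:24540030-24540036, chrX:24541532-24541538 and chrX:24541678-24541684 in this order.
PDK3 site 1: atgatgcgctTTACTAGttgtaaaata
PDK3 site 2: cggtagttctTTACTAGcacgcttttt
PDK3 site 3: ttcttctggcTTACTAGcctctttacc
Among all genes tested in Huh7 with an annotated UTR, 8.69% held at least 1 such match, and in MHCC97H 8.16% did. The median log2 fold change with miR-628-3p was 0.083 for genes with a match and -0.064 for those without in Huh7. In MHCC97H these medians were -0.044 and -0.035. The medians are on values before the GC and length correction described further on. Genes with and without a match were not matched for GC content or UTR length. Over all genes tested in Huh7 the fold change fell with GC content (Spearman's rho = -0.72). The part of GC content in these medians was not tested. PDK3 messenger RNA read 23.0, 25.9 and 27.3 FPKM with the control mimic and 26.6, 25.3 and 28.8 FPKM with the miR-628-3p mimic. In MHCC97H it read 16.6, 16.9 and 15.8 FPKM with the empty vector and 17.97, 16.51 and 23.0 FPKM with miR-628-3p. The groups overlapped in both lines, and the means were not lower with the microRNA in either. The log2 fold change of PDK3 was 0.080 (SE 0.075, adjusted p = 0.445) in Huh7 and 0.20 (SE 0.12, adjusted p = 0.368) in MHCC97H. A seed match is a description of letters and does not show that the site is used.

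The libraries held between 16472932 and 19578875 reads assigned to genes. Levels are given in FPKM, fragments scaled to exon length and to the total counted over genes, so they can be compared between genes of different length, and means are given ± SD over the 3 libraries of a group. All 11 hepatocyte markers had a mean of at least 1 FPKM in Huh7, where their sum lay between 12660 and 14687 FPKM. In MHCC97H 9 of the 11 did with the empty vector and 10 with miR-628-3p, but the sum was only 1907 to 2476 FPKM. Most of that sum was KRT8 and KRT18, which averaged 1343 and 758 FPKM with the empty vector against 774 and 624 FPKM in the Huh7 controls. The rest of the 11 averaged lower in the MHCC97H controls than in the Huh7 controls. Among them ALB, AFP, APOA1 and APOB averaged 13.9, 1.29, 0.32 and 0.85 FPKM with the empty vector, and ALB 39.8 FPKM with miR-628-3p. Of 6 fibroblast markers, 2 averaged at least 1 FPKM in Huh7 (LUM and COL1A2) and 1 in MHCC97H (LUM), with COL1A1 and DCN under 0.1 in every group. Of 5 endothelial markers, PECAM1 did in both lines and KDR in MHCC97H, with VWF and TEK under 0.1 in every group. Of 6 leukocyte markers, LYZ did in both lines and CD14 in Huh7, PTPRC averaged 0.120 and 0.175 FPKM in the Huh7 groups, and CD3E and CD68 were under 0.1 in every group. The summed fibroblast list was 44.0 to 55.7 FPKM in the Huh7 controls and 61.3 to 66.1 with the mimic, most of it LUM, and the leukocyte list 136 to 179 FPKM over the Huh7 libraries, most of it LYZ. In MHCC97H the 5 endothelial markers summed to 5.86 to 6.67 FPKM with the empty vector and 9.03 to 9.54 with miR-628-3p, and the fibroblast and leukocyte lists to at most 3.15. The part of these markers in the results was not tested. In bulk RNA, fewer cells that express a gene and less RNA per cell cannot be told apart.

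The main form differed between the 2 lines for hexokinase, for phosphofructokinase and for the lactate transporters SLC16A1 and SLC16A3, while ENO1, LDHA, PKM and PDK3 were the main forms of their families in both. Of 35 genes tested between the control groups, 18 were higher and 13 lower in MHCC97H (adjusted p under 0.05). Across all genes tested 42.3% were higher and 42.2% lower, 84.5% in all, so the count by itself sets these genes apart from nothing. A difference of at least 2 on the log2(FPKM + 1) scale was called for 12 of the 35, while 11.7% of all genes tested met that limit. After the correction for transcript GC content and length described further on, PC, PFKL, ALDOA and PGM1 were also called lower in MHCC97H and ALDOC and PDK1 were no longer called. Line, vector or mimic, and culture cannot be told apart in this comparison. Some levels are less certain than the depth alone gives. Pseudogene copies summed to at most 0.277% of GAPDH, 4.92% of TPI1, 3.55% of PGAM1 and 11.7% of LDHB in any library, and a gene on the opposite strand overlaps 38.6% of the exonic bases of PDK2, 22.5% of MPC2 and 21.3% of PDHA1.

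**Figure D1:**
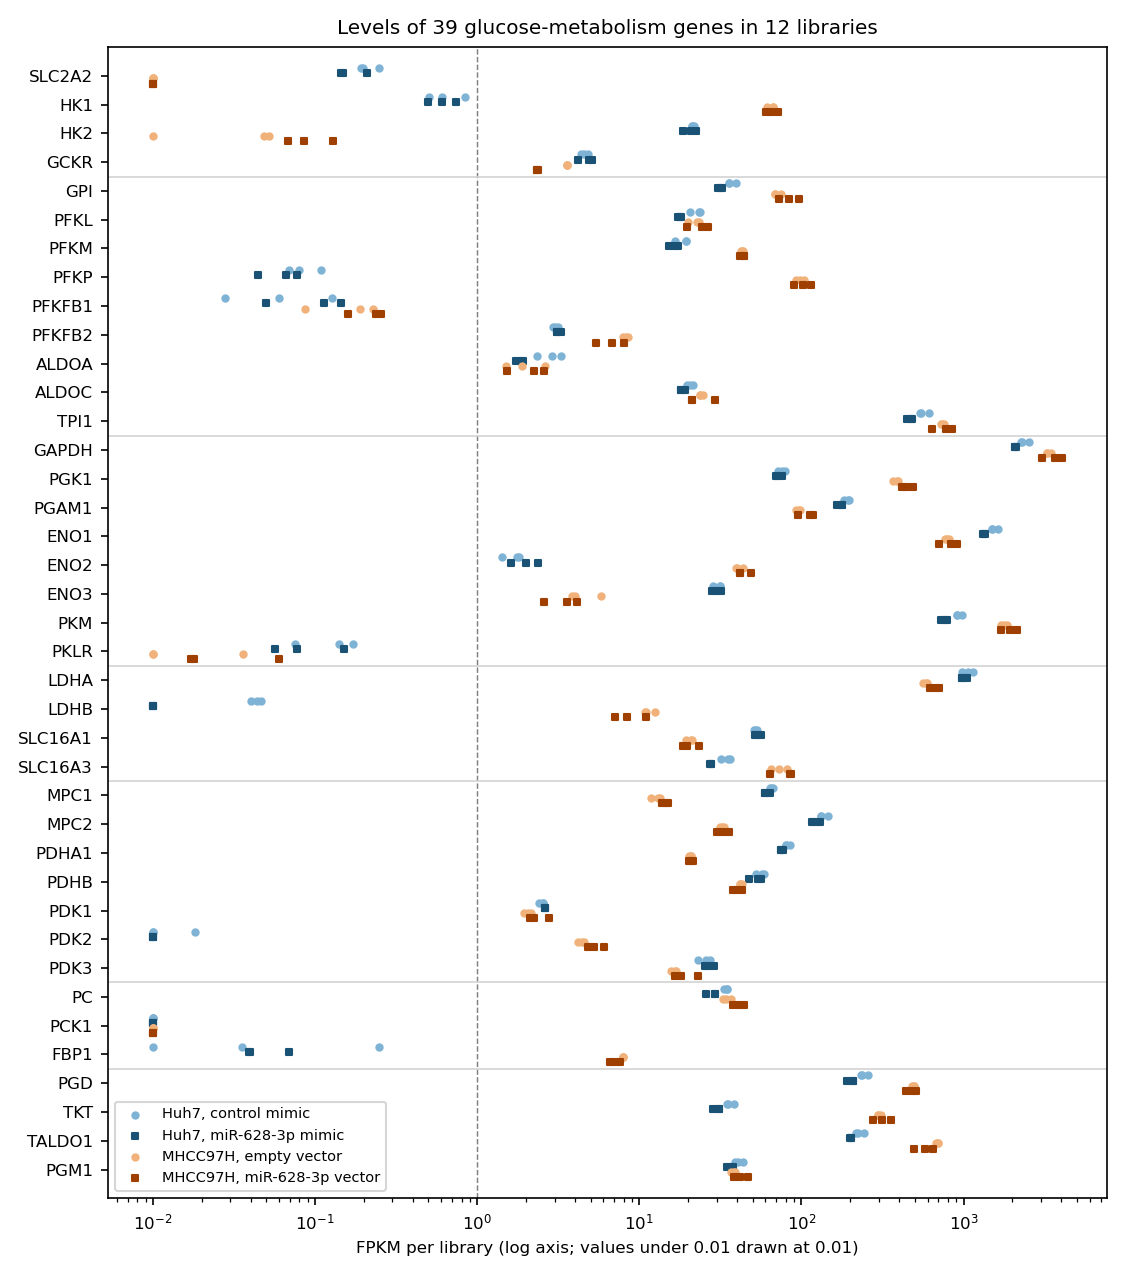
FPKM of the 39 genes in the 12 libraries on a log axis, by role from glucose uptake (top) to the pentose phosphate pathway (bottom), with 1 point per library. HK1 and PFKP sit right of 60 FPKM in MHCC97H and under 1 in Huh7, HK2 sits higher in Huh7 than in MHCC97H, and PCK1 lies at the left edge in all 12.

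At glucose uptake and phosphorylation, HK2 was the main hexokinase in Huh7, and HK1 with HKDC1, a further hexokinase that is not among the 39, in MHCC97H. HK2 read 21.8, 21.0 and 21.2 FPKM in the Huh7 controls, and in the MHCC97H controls it had only 5, 0 and 5 reads in all. HK1 read 0.602, 0.507 and 0.843 FPKM in the Huh7 controls and 66.8, 66.3 and 61.1 FPKM in the MHCC97H controls. HKDC1 averaged 0.793 ± 0.0943 FPKM and 42.7 ± 0.156 FPKM in the same order, and HK3 had no read in the controls of either line, which allows up to 3 reads in each library. HK2 thus made up 92.6% to 94.6% of the summed level of HK1, HK2, HK3 and HKDC1 in the Huh7 controls. In the MHCC97H controls HK1 was 58.9% to 60.9%, HKDC1 39.1% to 41.1% and HK2 at most 0.047%. With miR-628-3p HK2 was read at 18.6, 20.7 and 22.2 FPKM and HK1 at 0.603, 0.495 and 0.737 FPKM in Huh7. MHCC97H with miR-628-3p read 65.1, 71.8 and 60.3 FPKM for HK1, which was 63.3% to 66.7% of the 4, and had 8, 14 and 7 reads of HK2. SLC2A2, the liver glucose transporter GLUT2, had 8 to 15 reads per library in Huh7 and none in the 6 MHCC97H libraries, where a count of 0 allows up to 3 reads per library.

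Phosphofructokinase commits sugar to glycolysis and is a tetramer drawn from the liver (PFKL), muscle (PFKM) and platelet (PFKP) subunits. PFKP had 2 to 5 reads in each Huh7 library but 97.7, 104 and 93.1 FPKM in the MHCC97H controls and 102, 114 and 89.9 FPKM with miR-628-3p. It was 58.6% to 61.0% of the summed level of the 3 subunits in the MHCC97H controls. Huh7 controls instead split the family between PFKL, at 51.4% to 58.8%, and PFKM, at no more than 48.4%. PFKM read 19.3, 16.6 and 19.4 FPKM in the Huh7 controls and 42.5, 43.5 and 43.0 FPKM in the MHCC97H controls. The summed family level was 41.03 ± 1.40 FPKM in the Huh7 controls and 163 ± 6.56 FPKM in the MHCC97H controls, so MHCC97H held more in total as well as another make-up. Of the bifunctional enzymes that set fructose 2,6-bisphosphate, PFKFB2 read 3.02, 2.94 and 3.15 FPKM in the Huh7 controls and 7.89, 8.27 and 8.51 FPKM in the MHCC97H controls. PFKFB1, the liver form, had 1 to 10 reads per library in all 12.

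Enolase and lactate dehydrogenase each kept 1 main form in both lines, and the minor form changed. ENO1 was 97.8% to 98.0% of summed enolase in the Huh7 controls and 94.3% to 94.8% in the MHCC97H controls. The rest was ENO3, the muscle form, in Huh7 (31.6, 31.5 and 28.5 FPKM) and ENO2, the neuronal form, in MHCC97H (39.9, 43.3 and 39.7 FPKM). Conversely ENO2 read 1.77, 1.80 and 1.43 FPKM in the Huh7 controls and ENO3 read 3.87, 5.84 and 4.00 FPKM in the MHCC97H controls. LDHA, the form that favours lactate production, read 1146, 979 and 1073 FPKM in the Huh7 controls and 597, 589 and 565 FPKM in the MHCC97H controls. LDHB had 1 read in each Huh7 control library and none in the 3 with the mimic, which allows up to 3 reads in each, against 10.9, 12.4 and 10.9 FPKM in the MHCC97H controls. Of LDHB's exonic bases 33.4% are shared on the same strand with another annotated gene, so its level is uncertain. PKM, which makes the last ATP of glycolysis, was at least 99.98% of summed pyruvate kinase in all 12 libraries, and PKLR, the liver form, had 0 to 10 reads.

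**Figure D2:**
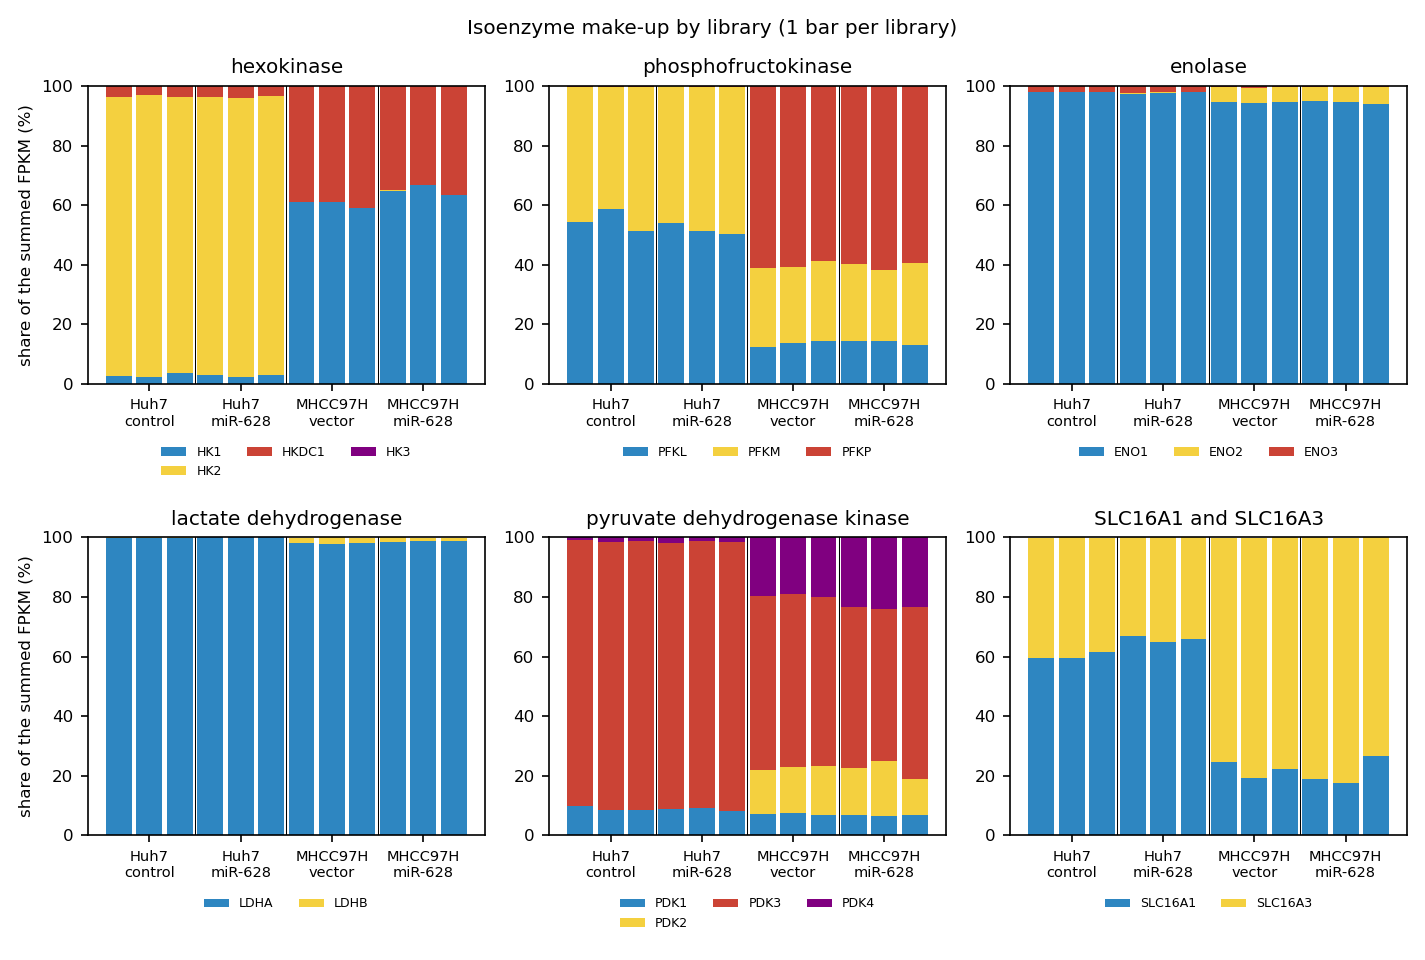
Share of each gene in the summed FPKM of the genes in its panel's legend (vertical axis, percent), with 1 bar per library and 3 libraries per group. HK2 fills at least 92.6% of the hexokinase bars in the Huh7 controls, HK1 58.9% to 66.7% of those in MHCC97H with HKDC1 as nearly all of the rest, and PFKP appears in the MHCC97H bars at 58.6% to 61.7%.

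The ways out of pyruvate also differed. The monocarboxylate transporters that carry lactate were mostly SLC16A1 (MCT1) in the Huh7 controls, at 59.5% to 61.4% of the pair, and mostly SLC16A3 (MCT4) in the MHCC97H controls, at 75.4% to 80.6%. SLC16A1 read 53.4, 51.7 and 50.7 FPKM against 21.2, 19.5 and 21.0 FPKM, Huh7 controls first. SLC16A7 (MCT2), which is outside the pair, averaged 10.2 ± 2.20 FPKM in the Huh7 controls. The mitochondrial pyruvate carrier and the alpha subunit of pyruvate dehydrogenase were higher in Huh7: MPC1 averaged 65.2 ± 1.05 FPKM against 12.8 ± 0.806 FPKM, MPC2 137 ± 7.73 FPKM against 32.4 ± 0.820 FPKM and PDHA1 81.9 ± 2.70 FPKM against 20.6 ± 0.273 FPKM. These are differences of -2.27, -2.04 and -1.94 on the log2(FPKM + 1) scale, MHCC97H minus Huh7, all called. PDHB, the beta subunit, averaged 56.2 ± 3.13 FPKM and 42.2 ± 0.846 FPKM. Among the kinases, PDK3 was the main form in both lines, at 89.1% to 90.3% of the 4 kinases in the Huh7 controls and 56.7% to 58.3% in the MHCC97H controls, where PDK4 was 18.9% to 19.9%, and PDK2 had 1 read over the 3 Huh7 control libraries but 4.21, 4.46 and 4.58 FPKM in the MHCC97H controls. PDK1 read 2.56, 2.42 and 2.54 FPKM and 2.07, 2.16 and 1.94 FPKM.

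Of the 3 gluconeogenic genes, PC alone averaged above 1 FPKM in both lines. PCK1, the cytosolic phosphoenolpyruvate carboxykinase, had no read in any of the 12 libraries. FBP1, fructose bisphosphatase, had 0 to 6 reads per Huh7 library and 7.95, 7.89 and 7.92 FPKM in the MHCC97H controls. PC, pyruvate carboxylase, which also refills the citric acid cycle, averaged 34.2 ± 0.640 FPKM and 34.6 ± 2.17 FPKM, a log2 difference of 0.011 (SE 0.051) that was not called. After the GC and length correction it was -0.46 and called lower in MHCC97H (adjusted p = 3.0e-06). The pentose phosphate enzymes were all higher in MHCC97H, where TKT, transketolase, averaged 301 ± 7.51 FPKM against 36.2 ± 1.90 FPKM. TALDO1, transaldolase, averaged 689 ± 8.42 FPKM against 229 ± 12.96 FPKM, and PGD, phosphogluconate dehydrogenase, 492 ± 8.77 FPKM against 241 ± 13.6 FPKM. PGK1, phosphoglycerate kinase, stood at 385 ± 13.7 FPKM against 75.7 ± 3.84 FPKM, whereas PGAM1, the next enzyme, was lower in MHCC97H at 96.1 ± 2.65 FPKM against 191 ± 7.38 FPKM. GAPDH was the most abundant of the 39 in every group, averaging 2354 ± 143 FPKM and 3338 ± 119 FPKM, and TPI1, triose phosphate isomerase, averaged 564 ± 41.2 FPKM and 738 ± 16.3 FPKM.

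With the miR-628-3p mimic, Huh7 cells had less messenger RNA for 10 of the 30 genes tested and more for none, each by a small amount, between 0.21 and 0.42 on the log2(FPKM + 1) scale. The 10 lie along the pathway: GPI, PFKL, ALDOA and TPI1 in upper glycolysis, ENO1 and PKM in lower glycolysis, the lactate exporter SLC16A3, the anaplerotic enzyme PC, and PGD and TKT of the pentose phosphate pathway. After each library was corrected for transcript GC content and length 0 of the 30 were called. None of the 6 tested genes of pyruvate entry into mitochondria was called. The count stands against a background in which 14.4% of the 12508 genes tested were called lower and 6.75% higher, 21.1% in all. The split of all calls, 844 higher and 1798 lower, became 1179 and 1385 when libraries were rescaled to the same median and 1352 and 1394 after quantile normalisation, and the members called were then 7 lower and 0 higher in both. Before any adjustment 17 of the 30 had p under 0.05, as had 41.9% of all genes tested, and the median log2 fold change was -0.15 over the 30 and -0.046 over all genes tested.

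In upper glycolysis PFKL read 23.2, 23.8 and 20.6 FPKM with the control mimic and 17.9, 17.4 and 17.7 FPKM with miR-628-3p. Every mimic library lay below every control library. The log2 fold change was -0.33 (SE 0.063, adjusted p = 0.0279). GPI, which interconverts glucose and fructose 6-phosphate, read 39.3, 35.7 and 35.6 FPKM and then 30.7, 32.2 and 31.8 FPKM, with a log2 change of -0.21 (SE 0.055, adjusted p = 0.0363). TPI1, which interconverts the triose phosphates, read 612, 538 and 543 FPKM and then 480.0, 472 and 447 FPKM, with a log2 change of -0.27 (SE 0.066, adjusted p = 0.0334). These groups did not overlap either. ALDOA, aldolase, read 3.27, 2.90 and 2.33 FPKM and then 1.86, 1.93 and 1.74 FPKM, with a log2 change of -0.42 (SE 0.10, adjusted p = 0.0329). Again the groups were separate, with 63 to 94 reads per control library and 52 to 56 per mimic library. Of its exonic bases 42.3% overlap another annotated gene on the same strand, so the ALDOA level is uncertain and may not hold all its reads. The other aldolase, ALDOC, read 20.5, 19.64 and 21.3 FPKM and then 19.0, 18.02 and 18.1 FPKM, with a log2 change of -0.15 (SE 0.053, adjusted p = 0.073); these groups did not overlap.

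In lower glycolysis PKM read 982, 907 and 905 FPKM in the controls and 726, 794 and 767 FPKM with the mimic. The gap between the groups was wider than the range within either. The log2 fold change of PKM was -0.29 (SE 0.062, adjusted p = 0.0297). ENO1, enolase 1, read 1629.9, 1497 and 1496 FPKM and then 1312, 1338 and 1348 FPKM, with a log2 change of -0.21 (SE 0.061, adjusted p = 0.0462). GAPDH and PGAM1 also had groups that did not overlap, but their log2 fold changes of -0.17 and -0.14 were not called (adjusted p = 0.0892 and 0.0921). PGK1 and ENO3 had overlapping groups and fold changes of -0.073 and -0.031. ENO2 had the largest positive value of the 30, with 1.77, 1.80 and 1.43 FPKM in the controls and 2.00, 2.36 and 1.63 FPKM with the mimic. Its groups overlapped, with a log2 change of 0.16 (SE 0.11, adjusted p = 0.29).

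The lactate exporter SLC16A3 read 36.2, 35.2 and 31.8 FPKM in the controls and 27.6, 27.8 and 27.3 FPKM with the mimic. The 3 mimic libraries lay close together below all controls. Its log2 fold change was -0.31 (SE 0.058, adjusted p = 0.0277). Its partner SLC16A1 read 56.1, 51.5 and 52.9 FPKM with the mimic, with a log2 change of 0.042 (SE 0.051, adjusted p = 0.56), so its share of the pair was 64.9% to 67.0% with the mimic against 59.5% to 61.4% in the controls. LDHA read 1048, 979.7 and 975 FPKM with the mimic, overlapping the controls, with a log2 change of -0.089 (SE 0.072, adjusted p = 0.376). PC read 34.6, 34.6 and 33.5 FPKM in the controls and 25.9, 29.3 and 29.1 FPKM with the mimic, without overlap. The change was -0.28 (SE 0.059, adjusted p = 0.0297).

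In the pentose phosphate pathway PGD read 257, 232 and 235 FPKM and then 191, 209 and 208 FPKM, with a log2 change of -0.25 (SE 0.061, adjusted p = 0.0339). TKT read 38.4, 34.8 and 35.5 FPKM and then 28.4, 31.0 and 31.1 FPKM, with a log2 change of -0.26 (SE 0.060, adjusted p = 0.0314). Both were lower in every mimic library. TALDO1 and PGM1, phosphoglucomutase, which links glycolysis with glycogen, also had separate groups and missed the threshold, at -0.17 and -0.18 (adjusted p = 0.0537 and 0.0607). In all, the groups were separate and lower with the mimic for 18 of the 30 and separate and higher for 1, while 29.3% and 19.5% of all genes tested were separate in these directions. The 1 was PDK1, at 2.56, 2.42 and 2.54 FPKM in the controls and 2.63, 2.63 and 2.61 FPKM with the mimic, with a log2 change of 0.049 (SE 0.066, adjusted p = 0.601). MPC1, MPC2 and PDHA1 were separate and lower, with fold changes of -0.086, -0.15 and -0.11 and no call. PDHB, PFKM, PFKFB2, HK2 and GCKR had overlapping groups and fold changes of -0.10, -0.16, 0.044, -0.058 and 0.037.

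**Figure D3:**
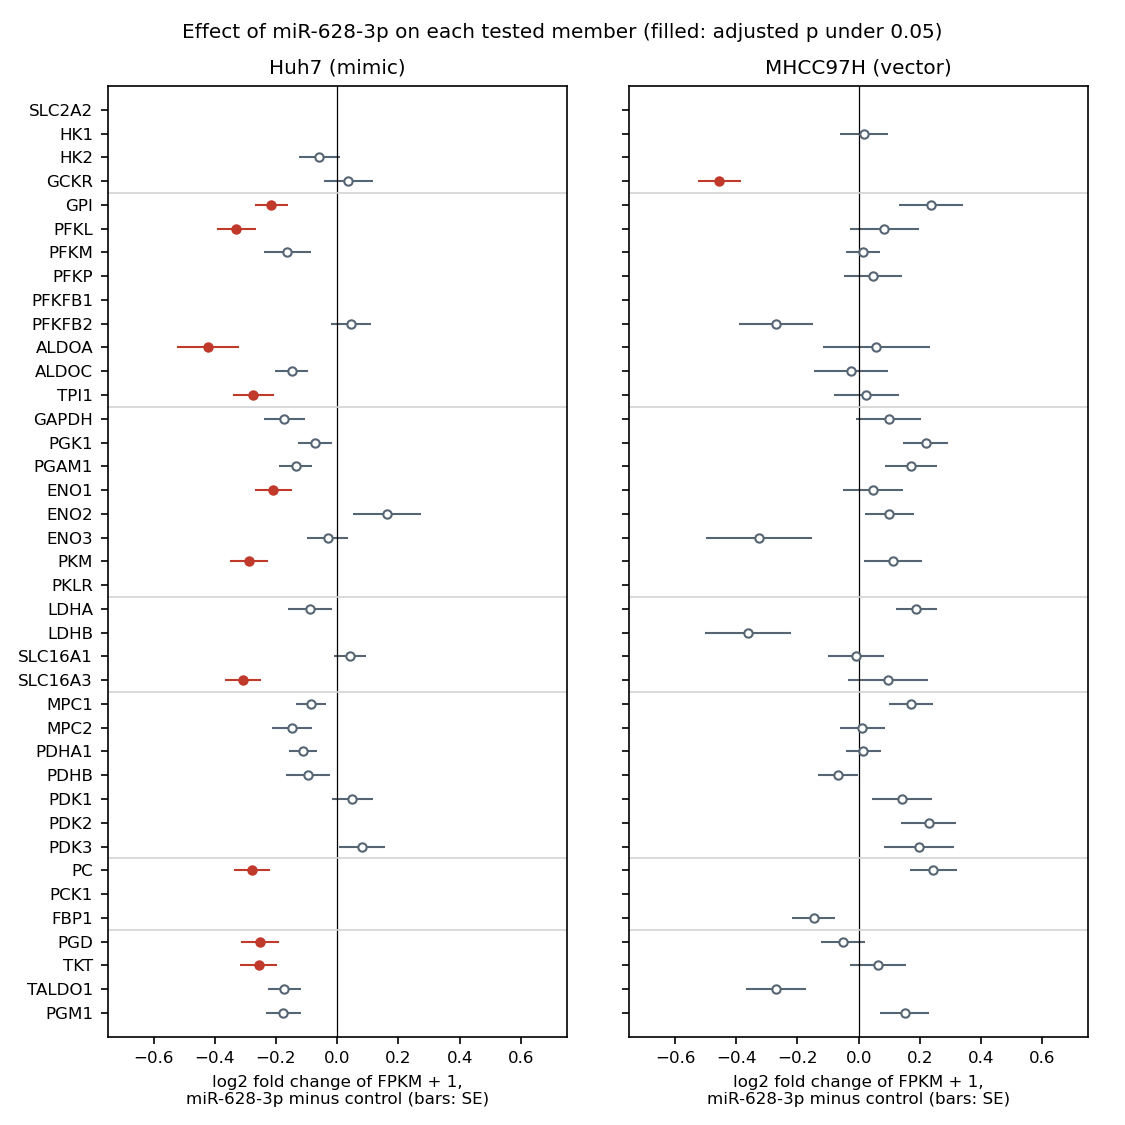
Log2 fold change of FPKM + 1, miR-628-3p minus control, for each tested gene in Huh7 (left) and MHCC97H (right), with SE bars from limma and filled points where the adjusted p is under 0.05. In Huh7 24 of 30 points lie left of 0 and 10 are filled, and in MHCC97H 24 of 34 lie right of 0 and GCKR alone is filled.

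Base composition moved with the Huh7 groups. Over all genes tested, Spearman's rho between the Huh7 fold change and transcript GC content was -0.72 (n = 12452 genes, which share the same 6 libraries), and over the 30 tested members it was -0.62. The deviation of a library from the gene means correlated with GC content at 0.43 to 0.65 in the 3 control libraries and at -0.65 to -0.46 in the 3 mimic libraries. The 10 called members had a median transcript GC content of 55.1% and a range of 52.7% to 64.1%, while the 20 tested and not called had a median of 47.2% and all genes tested 47.1%. After correction of each library for GC content and exon length without regard to group, 0 of the 30 were called, 10 of the 30 and 23.2% of all genes tested had an unadjusted p under 0.05, and 1 of all genes tested, or 0.00803%, was called. The 10 fold changes stayed negative but shrank, PFKL from -0.33 to -0.10, PKM from -0.29 to -0.14, ALDOA from -0.42 to -0.25 and ENO1 from -0.21 to -0.057. PDK1 changed sign under this correction, to -0.18.

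**Figure D4:**
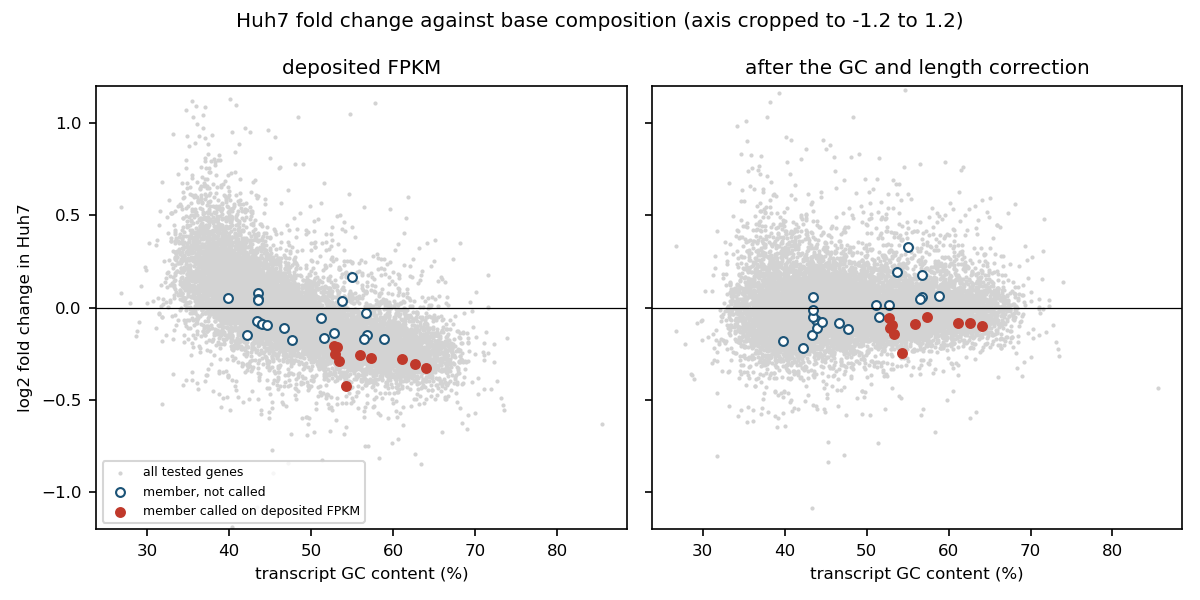
Huh7 log2 fold change against transcript GC content in percent for all tested genes (grey) and the tested members (circles; red where called on the deposited FPKM), on the deposited values (left) and after the GC and length correction (right). On the left the red points lie between 52.7% and 64.1% GC on a cloud that falls with GC content (rho = -0.72), and on the right no member is called.

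The Huh7 count was smaller in every fit that left out 1 library, as was the count over all genes. It was 2 without control library 1, 0 without control library 2 and 5 without control library 3, with 7.40%, 0.00801% and 13.3% of all genes tested called. It was 0 without any one of the 3 mimic libraries, with at most 0.032% of all genes called. The sign of all 10 stayed negative in each of these fits, where PFKL lay between -0.39 and -0.29 and PKM between -0.32 and -0.25. One fit over all 12 libraries called 1, PC, and 4.26% of all genes, and a fit with no filter on low genes called 0 and 0.0239%. The limma voom fit on reads worked back from the FPKM called 10, and 26.3% of all genes.

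In MHCC97H, where the microRNA came from a vector, 1 of the 34 genes tested was called. This was GCKR, a regulator of glucose phosphorylation in hepatocytes. GCKR read 3.58, 3.59 and 3.60 FPKM with the empty vector, which is 134, 135 and 144 reads, and 2.37, 2.33 and 2.34 FPKM with miR-628-3p, which is 86, 98 and 94 reads. The 2 groups did not overlap. The FPKM spread within each group was smaller than the counting error of so few reads, so its tightness is not a measure of precision. The log2 fold change of GCKR was -0.46 (SE 0.070, adjusted p = 0.0137). The limma voom fit on worked-back reads, which weighs counting error, gave -0.57 (SE 0.10, adjusted p = 0.0161). Over all 12670 genes tested 3.05% were called lower and 2.32% higher, 5.37% in all. These 294 higher and 386 lower calls became 349 and 288 after rescaling to the same median and 417 and 324 after quantile normalisation, with GCKR lower in both. Before adjustment 8 of the 34 had p under 0.05, as had 22.2% of all genes tested. GCKR was not called when any of the 3 empty vector libraries or miR-628-3p library 1 was left out, with a highest adjusted p of 0.0965, and its fold change then kept between -0.46 and -0.45.

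The other 33 tested genes did not pass the test, and 24 of the 34 had positive values. The median over the 34 was 0.052 against -0.039 over all genes tested. PC had the largest positive value, with 32.6, 36.9 and 34.2 FPKM and then 41.4, 43.9 and 38.02 FPKM. All 3 miR-628-3p libraries lay above the controls, with a log2 change of 0.24 (SE 0.077, adjusted p = 0.119). GPI read 68.4, 75.3 and 68.9 FPKM and then 83.6, 96.2 and 72.5 FPKM, with overlapping groups and a log2 change of 0.24 (SE 0.10, adjusted p = 0.235). PDK2 read 4.21, 4.46 and 4.58 FPKM and then 5.23, 6.06 and 4.80 FPKM, without overlap, with a log2 change of 0.23 (SE 0.091, adjusted p = 0.198). LDHA, PGK1 and MPC1 also lay higher in every miR-628-3p library. LDHA read 669, 706 and 623 FPKM with miR-628-3p, with a log2 change of 0.19 (SE 0.068, adjusted p = 0.158), and PGK1 and MPC1 had 0.22 and 0.17. These 5 of 34 compare with 12.2% of all genes tested that were separate and higher.

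On the low side LDHB read 10.9, 12.4 and 10.9 FPKM and then 10.9, 8.34 and 7.07 FPKM, overlapping by 1 library, with a log2 change of -0.36 (SE 0.14, adjusted p = 0.184). ENO3 read 3.87, 5.84 and 4.00 FPKM and then 3.58, 4.15 and 2.59 FPKM, overlapping, with a log2 change of -0.33 (SE 0.17, adjusted p = 0.32). Besides GCKR, FBP1 and TALDO1 were lower in every miR-628-3p library, while 17.7% of all genes tested were separate and lower. FBP1 read 7.01, 7.59 and 6.59 FPKM with miR-628-3p, a fold change of -0.15, and TALDO1 averaged 575 ± 76.3 FPKM against 689 ± 8.42 FPKM, at -0.27. PFKFB2 read 6.77, 5.40 and 7.996 FPKM with miR-628-3p, with a log2 change of -0.27 (SE 0.12, adjusted p = 0.246). The main glycolytic forms ENO1, PKM, GAPDH and PFKP had overlapping groups and fold changes of 0.047, 0.11, 0.10 and 0.046. So did PFKL, a minor form in this line, at 0.083. Of the phosphofructokinases, PFKL read 20.0, 23.2 and 22.8 FPKM and then 24.3, 26.4 and 19.7 FPKM, and PFKM read 44.1, 44.2 and 42.0 FPKM with miR-628-3p. ENO1 read 793, 812 and 764 FPKM and then 836, 917 and 707 FPKM. SLC16A3 read 64.9, 81.2 and 72.4 FPKM and then 84.6, 86.3 and 63.9 FPKM, and its partner SLC16A1 read 19.59, 18.6 and 23.3 FPKM with miR-628-3p. For PFKL, PFKM, ENO1 and SLC16A3 the 3 miR-628-3p libraries reached past the controls on both sides. PKM read 1776, 1859.8 and 1692 FPKM and then 1944, 2135 and 1699.8 FPKM. Here 2 miR-628-3p libraries lay above the controls and 1 among them. ALDOC read 24.7, 23.8 and 23.5 FPKM and then 21.2, 29.1 and 21.2 FPKM, past the controls on both sides, and ALDOA 1.89, 2.62 and 1.503 FPKM and then 2.25, 2.60 and 1.53 FPKM, within their range. ENO2 read 41.7, 48.7 and 41.7 FPKM and PDK1 2.24, 2.13 and 2.78 FPKM with miR-628-3p. Both had at least 1 library among the controls and 1 above them.

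The 3 MHCC97H miR-628-3p libraries were far apart for these genes. Library 2 was the highest of the 6 for 22 of the 34, or 64.7%, while it was the highest for 21.5% of all genes tested. Library 3 was the lowest of the 6 for 17, while it was the lowest for 30.6% of all genes tested. The median log2 ratio of library 2 to library 3 was 0.24 over the 34 and 0.012 over all genes tested. Over all genes tested, the deviation of a library from the gene means correlated with transcript GC content at 0.65 in library 2 and -0.53 in library 3. This correlation was 0.23 in library 1 and -0.37 to 0.22 in the empty vector libraries. The 39 genes had a median GC content of 52.9%, and all genes tested in Huh7 47.1%. The part of GC content in the gap between libraries 2 and 3 was not tested. The chi-square per degree of freedom of the reads of these 2 libraries was 31.1, and it was 1.85 to 3.26 between the empty vector libraries. Without library 3, 7 of the 34 were called. These were GPI, LDHA, PC, PGAM1 and PGK1 as higher and GCKR and PFKFB2 as lower, while 4.98% of all genes tested were called higher and 7.67% lower in that fit. Without library 2, GCKR and TALDO1 were called, both lower, and 3.25% of all genes were called lower. After the GC and length correction, 5 were called higher (LDHA, MPC1, PC, PDK2, PGAM1) and 3 lower (GCKR, PFKFB2, TALDO1), while 8.34% and 7.35% of all genes tested were, 15.7% in all. The part of the spread between libraries in these counts was not tested further.

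**Figure D5:**
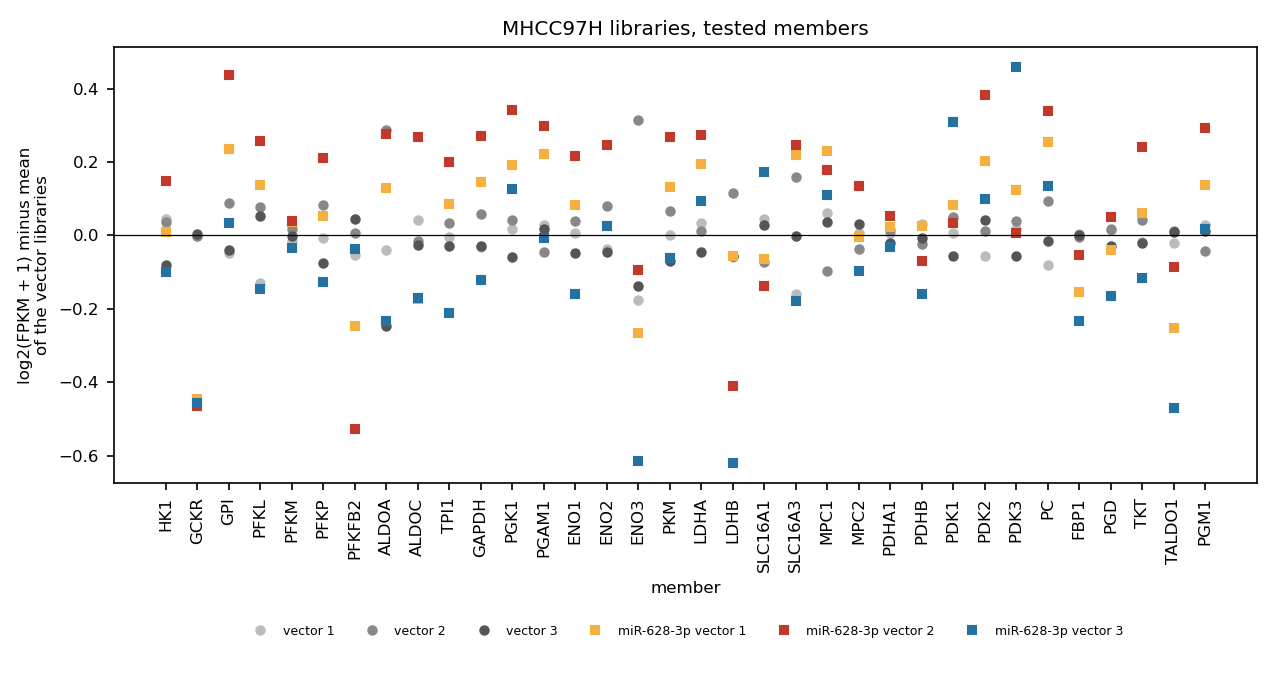
Log2(FPKM + 1) of each MHCC97H library minus the mean of the 3 empty vector libraries (vertical axis) for the 34 tested members (horizontal axis), with circles for the empty vector and squares for miR-628-3p. The 3 squares of GCKR coincide below 0, while for 22 genes the square of miR-628-3p library 2 is the highest of the 6 points and for 17 that of library 3 is the lowest.

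The effect of miR-628-3p differed between the lines for 4 of the 35 genes tested over all 12 libraries, with 12.9% of all genes tested called. PC, GPI and PKM were the 3 with a higher effect in MHCC97H than in Huh7, against 7.43% of all genes, and GCKR was the 1 with a lower effect, against 5.43%. The difference for PC, coded as MHCC97H minus Huh7, was 0.52 (SE 0.10, adjusted p = 0.00823), from -0.28 in Huh7 and 0.24 in MHCC97H. For GCKR it was -0.49 (SE 0.095, adjusted p = 0.00962), from 0.037 and -0.46 in the same order. GCKR in Huh7 read 4.38, 4.79 and 4.55 FPKM with the control mimic and 5.13, 4.86 and 4.20 FPKM with miR-628-3p, with overlap. GPI gave 0.45 (SE 0.12, adjusted p = 0.0362), and PKM gave 0.40 (SE 0.11, adjusted p = 0.0417). By the deposited positions (GRCh38.p13) PC lies at chr11:66848417-66958386 on the minus strand, GCKR at chr2:27496839-27523684 and GPI at chr19:34359480-34402413, both on the plus strand, and PKM at chr15:72199029-72231822 on the minus strand. Before adjustment 17 of the 35 had p under 0.05, as had 33.2% of all genes tested, and the median difference was 0.18 over the 35 and 0.016 over all genes tested.

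PC and GCKR were called in all 12 fits that left out 1 library and in all 8 other alternatives. After the GC and length correction over the 12 libraries the difference was 0.31 for PC and -0.60 for GCKR. Corrected within each line instead, PC changed by -0.084 in Huh7 and 0.21 in MHCC97H, which do not add up exactly to the 0.31. Over all genes tested, Spearman's rho between the difference and transcript GC content was 0.59 (n = 13125 genes, which share the same 12 libraries), and 0.29 over the 35. GPI was called in 3 of the 12, with adjusted p between 0.0031 and 0.089, and in 6 of the 8. PKM was called in 1 of the 12, with adjusted p between 0.0044 and 0.107, and in 4 of the 8. Leaving out any 1 library except MHCC97H miR-628-3p library 3 gave 2 or 3 calls in all, beside 4.84% to 9.64% of all genes. Leaving out library 3 gave 19, of which 17 were higher and 2 lower, with 17.8% of all genes tested called higher and 17.6% lower. After the GC and length correction 7 were called: LDHA, MPC1, PC, PGM1 and PKM higher, and GCKR and TALDO1 lower, while 8.32% and 6.98% of all genes tested were, 15.3% in all.

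Promoters are shown for PC and GPI, which alone of the 4 genes with effects that differed between the lines held the letters searched. A link between these letters and the effects was not tested. The letters searched were ACGTG, the core of the hypoxia response element, and CACGT for the same letters on the other strand, in the 250 bases before each RefSeq start. A run CACGTG holds both and counts once as a window with a match. Of the 39 genes 36 were in the promoter table, with 72 windows, and PCK1, PFKFB2 and SLC16A1 were not. A match was in 23 of the 72 windows, or 31.9%, and in 18.5% of 35116 windows of all genes. This background was not limited to genes tested here, nor matched for base composition, so the 2 shares do not show an enrichment. At least 1 was held by 20 of the 36 genes and by 21.7% of 27305 genes, which have 1.29 windows each against 2 for the 36. The PC window on the minus strand at chr11:66958384-66958633 (GRCh38.p14) held 2, in capitals, and the 2 other PC windows none.
PC: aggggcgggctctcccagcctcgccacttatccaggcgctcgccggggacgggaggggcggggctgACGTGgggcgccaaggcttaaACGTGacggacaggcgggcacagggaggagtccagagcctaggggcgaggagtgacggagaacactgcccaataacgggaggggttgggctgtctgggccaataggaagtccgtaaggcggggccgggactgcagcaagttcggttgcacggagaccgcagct
The GPI window on the plus strand at chr19:34364742-34364991 held 1.
GPI: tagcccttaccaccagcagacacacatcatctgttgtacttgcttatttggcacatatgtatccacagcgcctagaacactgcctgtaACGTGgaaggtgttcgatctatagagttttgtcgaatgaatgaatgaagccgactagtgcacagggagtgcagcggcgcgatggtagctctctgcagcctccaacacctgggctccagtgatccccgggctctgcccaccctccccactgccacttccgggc
The PKM and GCKR windows in the table held none. A match describes letters in this window and nothing about binding.

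Of 71 further genes of the same pathways and their regulators, listed by role, 46 were tested in Huh7, 50 in MHCC97H and 51 for the difference. In Huh7 13 were called lower and 4 higher, beside 14.4% and 6.75% of all genes tested, again with 0 called after the GC and length correction. PGLS, the lactonase of the pentose phosphate pathway, fell from 29.1 ± 2.14 FPKM to 22.3 ± 1.76 FPKM. BSG, the chaperone of the lactate transporters, fell from 260.3 ± 11.9 FPKM to 213 ± 12.6 FPKM. Their log2 fold changes were -0.37 and -0.29. The glucose transporters SLC2A6 and SLC2A8 (-0.40 and -0.33), the glucose 6-phosphate transporter SLC37A4 (-0.23) and the hepatocyte factor HNF4A (-0.28) were also called lower. DLD, a subunit of pyruvate dehydrogenase, and HIF1A, the hypoxia factor that drives many glycolytic genes, were called higher at 0.31 and 0.48.

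MHCC97H called 6 of these higher and 5 lower, beside 2.32% and 3.05% of all genes tested. After the correction it called 13 and 8, beside 8.34% and 7.35%. PPP1R3C, which targets a phosphatase to glycogen, rose from 2.47 ± 0.138 FPKM to 5.87 ± 0.431 FPKM, a log2 fold change of 0.98 (adjusted p = 0.00156). PYGL, the liver glycogen phosphorylase, was called higher and PYGB, the brain form, lower (0.28 and -0.36). The glucose transporter SLC2A3, the pyruvate dehydrogenase kinase PDK4 and the bifunctional enzyme PFKFB3 were called higher at 1.56, 0.50 and 0.36. PDP1, the phosphatase that opposes the pyruvate dehydrogenase kinases, fell from 10.2 ± 0.201 FPKM to 5.84 ± 1.28 FPKM, at -0.74. HKDC1 fell from 42.7 ± 0.156 FPKM to 35.3 ± 0.415 FPKM, and PCK2, the mitochondrial phosphoenolpyruvate carboxykinase, from 19.64 ± 1.97 FPKM to 14.1 ± 1.17 FPKM. SLC16A4, of the monocarboxylate transporter family, was called lower at -0.32.

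The effect differed between the lines for 15 of the 51, with 12 higher in MHCC97H and 3 lower, beside 7.43% and 5.43% of all genes tested. BSG and SLC2A1, the widespread glucose transporter GLUT1, were among the higher, with differences of 0.74 and 0.81. SLC2A1 averaged 15.3 ± 0.972 FPKM and 12.7 ± 1.12 FPKM in Huh7 and 25.4 ± 2.74 FPKM and 38.05 ± 6.56 FPKM in MHCC97H, control first. PPP1R3C, SLC2A3, PYGL, SLC37A4, PFKFB3 and HNF4A were higher by 0.98, 1.55, 0.36, 0.50, 0.56 and 0.46. PDP1 and HIF1A were lower by the same measure, at -0.79 and -0.998.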

How the data were processed

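The deposited table holds FPKM made by the authors, fragments per exon length and total counted, for each Ensembl gene of the 12 libraries. Its header gives positions on GRCh38.p13. The submitters' processing notes name HISAT2, HISAT and HTSeq with GRCh38 and hg38, and the labels' protocols describe poly-A selection and strand-marking dUTP libraries. Strand use in the counting and the treatment of overlapping genes are not given in the sources used here. Reads were worked back from FPKM and exon length, and 100% of values came out within 0.01 reads of a whole number.

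Genes with a mean of at least 1 FPKM over the libraries of a fit were tested with limma 3.58.1 in R 4.3.3 (eBayes with a trend) on log2(FPKM + 1), with group as the term and Benjamini-Hochberg adjustment over all genes tested. A gene was called, or described as having risen or fallen, where its adjusted p was under 0.05. A fold change on this scale understates the change of weakly expressed genes. The 4 comparisons were miR-628-3p against control in each line, the difference of these effects over 12 libraries, and the control groups against each other. No label says that the libraries of a group came from separate cultures, so the p-values reflect their spread alone, which may be technical. The limit of 3 reads for a count of 0 covers counting error only.

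GC content and UTRs came from GENCODE release 29 (longest transcript), with a GC value for all 39 genes. The GC and length correction fitted splines with 5 degrees of freedom per library. The limma voom alternative used a TMM scaling on the worked-back reads. The fits were checked on simulated counts with a dispersion of 0.003 and no trend with GC content. That check therefore does not cover the GC trends or the wider library spread seen here. Values per library are given for called genes, the 3 largest rises and falls per line and isoenzyme families, and of the other pathway genes for at most 10 called per comparison, by smallest p. A few genes of these lists are counted but not reported here by name. The members, lists and tests were chosen with earlier results of these data known.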

Additional observations from a re-analysis of the deposited data

Results flagged for a closer look

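A difference in the effect of miR-628-3p between the lines, tested as an interaction over all 12 libraries with limma, marked 4 of the 35 genes. GCKR was lower by this measure at -0.49, having read 3.59 ± 0.0113 FPKM with the empty vector and 2.35 ± 0.0234 with miR-628-3p in MHCC97H, and 4.57 ± 0.207 and 4.73 ± 0.477 with the control and miR-628-3p mimics in Huh7 (SD, n = 3). The MHCC97H SDs lie below the counting error of 86 to 144 reads per library. PC was higher at 0.52, as each Huh7 mimic library lay below its controls and each MHCC97H miR-628-3p library above its own. GPI was higher at 0.45 and PKM at 0.40. Delivery by mimic or vector cannot be told apart from the line in these differences.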

How the results depend on the processing

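Counts of called genes are followed in brackets by the share of all genes tested that was called in that fit. In Huh7 10 were called (21.1%). No filter on low genes gave 0 (0.0239%), and the GC and length correction with or without the replicate block gave 0 (0.00803%). The replicate block gave 6 (9.49%), the joint fit of 12 libraries 1 (4.26%), and leaving out 1 library 0 to 5 (0% to 13.3%). A pseudocount of 0.1 gave 10 (20.4%) and limma voom 10 (26.3%). Median rescaling gave 7 (20.5%) and quantile normalisation 7 (22.0%). In MHCC97H, where 1 was called, quantile normalisation gave 3, the GC and length correction 8, that correction with the replicate block 7, the joint fit 3, and leaving out 1 library 0 to 7. For the difference between the lines, where 4 were called, no filter gave 2, quantile normalisation 8, the GC and length correction 7, that correction with the replicate block 9, and leaving out 1 library 2 to 19. The count between the control lines, 31 (84.5%), lay between 31 and 33 in every alternative (50.9% to 85.5%). The causes of these shifts were not tested.

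Of single genes, 460 values kept direction and side of the threshold, 134 lost a call, 14 gained one and 4 reversed. The reversals were PDK1 in Huh7, at -0.18 after the GC and length correction with and without the replicate block, and PFKL between the control lines, which was -0.034 and not called, ranged from -0.095 to 0.032 when 1 library was left out, and was -0.54 and called after the GC and length correction. Correlations of same-numbered libraries were -0.015, -0.075 and 0.037 in Huh7 and -0.088, 0.30 and 0.13 in MHCC97H. Not every library correlated best with its own number, though MHCC97H empty vector libraries 2 and 3 did. With 3 libraries per group these correlations depend on each other and cannot decide whether replicate numbers pair the samples. Read depth limits the genes with few reads, such as PKLR and PFKFB1, whose changes were not detectable.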
